A study of Oryza sativa with 6 samples.

Results

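The genes described here are 4 DNA methyltransferase genes, MET1-1, MET1-2, CMT3A and DRM2, and 2 genes of Polycomb complexes, fie and EZ1. MET1-1, MET1-2, CMT3A and DRM2 were taken as 1 named probe set each, and fie and EZ1 by their names in the platform annotation, which pairs each with 1 probe set. These are 6 of the 17905 genes that the annotation pairs with a probe set, and 6 of 57258 probe sets that are not controls. Japonica rice seedlings gave the RNA for 6 Affymetrix arrays. The wild type and Epi-df had 3 biological replicates each, both grown in artificial soil to an age of 3 weeks, and the labels name no treatment and no other allele. Epi-df plants are dwarf and carry an epigenetic allele of the Polycomb gene FIE1, which is known to be active in endosperm in the wild type and in other tissues in Epi-df. A seedling mixes cells of several types, so fewer cells of a type and less RNA per cell cannot be told apart in any value below.

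DNA methylation in plants lies in several sequence contexts, each kept up by its own enzymes. MET1 enzymes copy methylation at CG sites onto the new strand behind the replication fork, and MET1-2 is the main one in rice. CMT3A is a chromomethylase, which methylates CHG sites in chromatin that carries repressive histone marks, and DRM2 places new methylation guided by small RNAs. FIE proteins and EZ1 belong to Polycomb repressive complex PRC2, in which EZ1, also named SDG718, is a SET-domain methyltransferase of histone H3 and FIE a WD40 scaffold. Since Epi-df is defined by the methylation state and expression of a Polycomb gene, the comparison asked whether transcripts of these writers differ between the lines.

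The arrays were alike in level, with median intensities from 108.1 to 114.5, and no 2 arrays held the same values. Leaf genes were bright, RBCS, the small subunit of Rubisco, lying between 23271 and 24975. Of 6 glutelin genes, which mark endosperm, GLUA-1, GLUA-3 and GLUC lay between 13.5 and 53.1, under the level of 81.1 that a probe set had to reach on average to be tested. The other 3 were tested and not called: GLUA-2 lay between 531 and 691, GLUB4 between 112 and 139.4, and GLUB5 between 63.8 and 89.2 apart from 162 in Epi-df replicate 2. For the GAPDH control, the 3' probe set was brighter than the 5' one, a measure of RNA integrity, by a factor of 1.59 to 1.88 in wild type and of 2.19, 1.55 and 2.33 in Epi-df replicates 1, 2 and 3. For actin that factor was 9.83 to 10.7 in wild type and 13.8, 7.72 and 9.20 in Epi-df, so Epi-df replicate 3 was the highest array by GAPDH and below every wild type array by actin.

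None of the 6 genes differed between Epi-df and wild type by the test. All 6 passed the filter on low values. A probe set was called at a limma adjusted p under 0.05 with at least a 2-fold change, and 0 of the 6 were called where 0.614% of the 34355 tested probe sets were. With no fold threshold it was 0 of 6 as well, against 1.79%. At an unadjusted p under 0.05 the count was again 0 of 6, against 14.4% of all tested. The groups overlapped in each of the 6 genes, while 19.6% of all tested probe sets had groups that did not overlap.

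**Figure D1:**
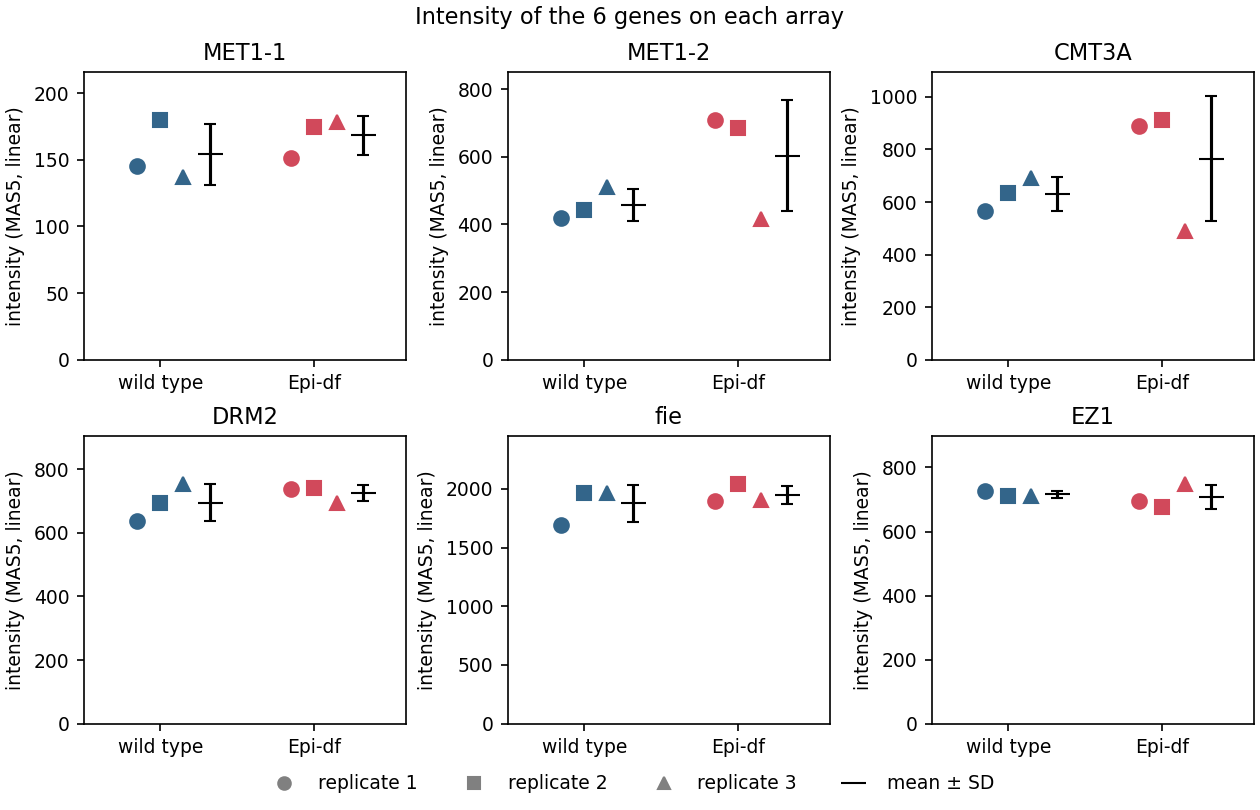
Deposited intensity (linear, MAS5) of each of the 6 genes, with 1 point per array, blue for wild type and red for Epi-df, and the mean ± SD of 3 arrays beside them. MET1-2 and CMT3A are high in Epi-df replicates 1 and 2 and low in Epi-df replicate 3, and the groups overlap in all 6 genes.

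MET1-2 had the largest difference of the 6. Its intensity was 419, 442 and 511 in wild type replicates 1, 2 and 3, and 709, 687 and 415 in Epi-df replicates 1, 2 and 3. Epi-df replicates 1 and 2 lay above every wild type array, and Epi-df replicate 3 lay just below all of them. The means were 457 ± 47.8 in wild type and 603 ± 164 in Epi-df (SD, n = 3 in each group). On the log2(intensity + 16) scale this was a difference of 0.35 ± 0.20 (SE), with a 95% interval from -0.11 to 0.82 (limma adjusted p = 0.511). The interval holds no change and a rise of up to 1.77-fold, and leaves out a 2-fold rise. Without Epi-df replicate 3 the difference was 0.60 ± 0.11 (limma adjusted p = 0.0578), still not past the threshold, and without Epi-df replicate 1 it was 0.22.

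CMT3A followed MET1-2 from array to array. It stood at 565, 636 and 691 in wild type and at 891, 912 and 490.4 in Epi-df replicates 1, 2 and 3. Again the first 2 Epi-df arrays were the highest of all 6 and the third was the lowest. The means of 631 ± 63.0 and 764 ± 237 gave a log2 difference of 0.22 ± 0.23, with a 95% interval from -0.31 to 0.76 (limma adjusted p = 0.761). It was 0.51 ± 0.11 without Epi-df replicate 3 (limma adjusted p = 0.0806), and with Epi-df replicate 1, Epi-df replicate 2 or wild type replicate 1 left out it was 0.09, 0.07 or 0.15. Pearson's r of the log2 values of CMT3A and MET1-2 over the 6 arrays was 0.96, a description of arrays that share their groups and their scaling.

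MET1-1, the other CG methyltransferase gene, did not share this order. Its intensities were 145, 179.7 and 137 in wild type and 152, 175 and 179 in Epi-df replicates 1, 2 and 3. The highest value was that of wild type replicate 2, and Epi-df replicate 3, where MET1-2 was lowest, held the highest of the Epi-df values. The log2 difference was 0.12 ± 0.12, with a 95% interval from -0.15 to 0.40 (limma adjusted p = 0.739), and 0.23 without wild type replicate 2 and 0.05 without wild type replicate 3. Whether MET1-1 and MET1-2 changed unequally was tested on their ratio within each array. Its log2 value was 1.43, 1.23 and 1.78 in wild type and 2.11, 1.88 and 1.15 in Epi-df. The groups overlapped (exact permutation test, two-sided, p = 0.5, where 3 arrays against 3 cannot go below 0.1). The difference of 0.23 became 0.03 with Epi-df replicate 1 left out and 0.52 with replicate 3 left out (exact permutation p = 0.9 and 0.2).

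DRM2 varied less. It was at 636, 694 and 753 in wild type and at 738, 739.8 and 695 in Epi-df, all inside the wild type range. The log2 difference of 0.06 ± 0.09 had a 95% interval from -0.15 to 0.27 (limma adjusted p = 0.843), so a rise above 1.21-fold lay outside it. The ratio of DRM2 to MET1-2 on the log2 scale was 0.58, 0.63 and 0.55 in wild type and 0.06, 0.11 and 0.72 in Epi-df replicates 1, 2 and 3 (exact permutation p = 0.4). MET1-2 is its denominator and DRM2 varied little, so the ratio was low where MET1-2 was high. Its difference between the groups was -0.29. Epi-df replicate 3 was the Epi-df array above the wild type values. Without that array the difference was -0.51 (exact permutation p = 0.1, the smallest that 3 arrays against 2 allow). The groups then no longer overlapped, which follows from leaving that array out.

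The ratio of CMT3A to MET1-2 was the 1 of the 4 ratios compared whose groups did not overlap. Its log2 value was 0.42, 0.51 and 0.42 in wild type and 0.32, 0.40 and 0.23 in Epi-df, a difference of -0.13. The exact permutation p was 0.1, the smallest the design allows, and 0.4 after Benjamini-Hochberg adjustment over the 4 ratios. No ratio could therefore reach a p under 0.05, whatever its values.

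The Polycomb genes lay closer together. The probe set of fie was at 1695, 1968 and 1967 in wild type and at 1899, 2040.02 and 1904 in Epi-df, and only wild type replicate 1 stood below the rest. The log2 difference was 0.06 ± 0.09, with a 95% interval from -0.14 to 0.26 (limma adjusted p = 0.854). Without wild type replicate 1 it was -0.02. Rice has closely related FIE genes, and the annotation does not settle which of them this probe set measures or whether it takes up signal from the other. It is therefore no check of the Epi-df labels.

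EZ1 was the steadiest of the 6 in wild type, at 728, 711 and 709.6, and was at 696, 675 and 748 in Epi-df replicates 1, 2 and 3. Its SD on the log2 scale over the wild type arrays was 0.02, a value that 3.03% of tested probe sets matched or went below. The Epi-df arrays lay on both sides of the wild type range, with replicate 3 the highest, the opposite of the order of CMT3A. The log2 difference was -0.02 ± 0.08, with a 95% interval from -0.20 to 0.16 (limma adjusted p = 0.948), which leaves out a fall below 0.869 of the wild type level. The ratio of EZ1 to fie overlapped between the groups (log2 difference -0.08, exact permutation p = 0.6, where the smallest possible is 0.1).

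**Figure D2:**
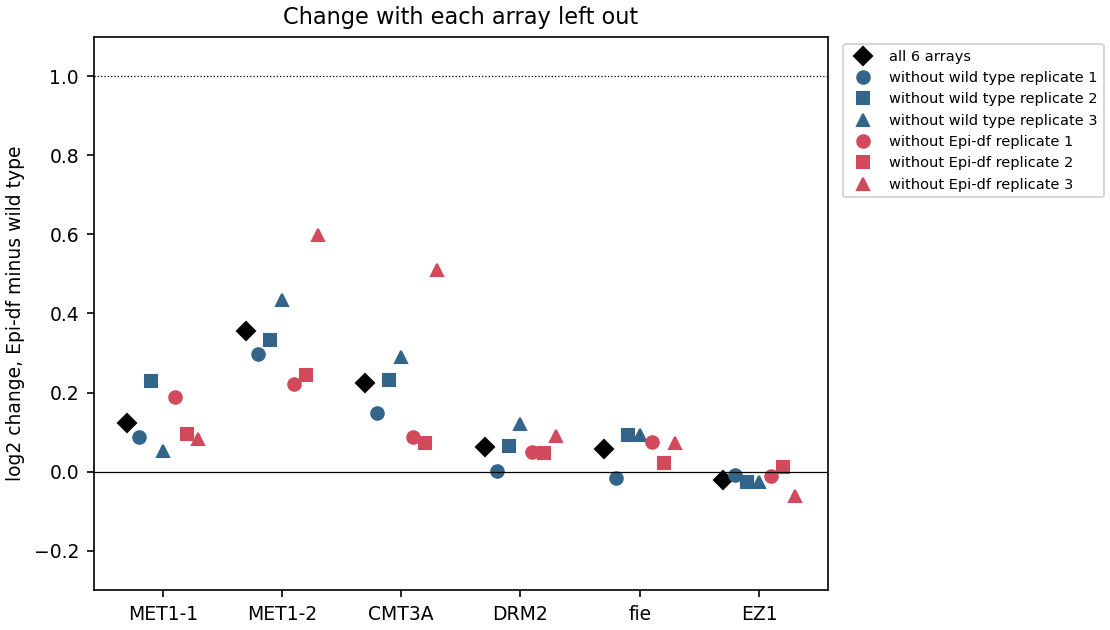
Log2 difference of each gene, Epi-df minus wild type, with all 6 arrays (black diamonds) and with 1 array left out (blue, a wild type array; red, an Epi-df array); the dotted line marks 2-fold. MET1-2 and CMT3A reach 0.60 and 0.51 without Epi-df replicate 3, and no gene reaches 2-fold in any of these fits.

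Epi-df replicate 3 set MET1-2 and CMT3A apart from the other members. In that array MET1-2 was 1.66-fold and CMT3A 1.81-fold below the mean of the other 2 Epi-df arrays on the log scale, and only 1.09% and 0.704% of tested probe sets had as low a deviation there. The same deviation was -0.09 for DRM2, -0.05 for fie, 0.12 for EZ1 and 0.12 for MET1-1 (log2). The SD over the Epi-df arrays, 0.42 for MET1-2 and 0.50 for CMT3A, was as large as or larger than that of 95.8% and 97.2% of tested probe sets, while in the wild type both had an SD of 0.14.

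On average, genes of DNA replication showed a like order over the arrays. They were 29 tested genes of 31 found by name, among them MCM helicase, ORC and replication factor genes. Their mean log2 level, relative to the wild type mean, was -0.08, 0.02 and 0.07 in wild type and 0.20, 0.22 and -0.04 in Epi-df replicates 1, 2 and 3. Of the 29 genes, 20 had their lowest Epi-df value in replicate 3 and 24 their lowest wild type value in replicate 1, where CMT3A and MET1-2 were also lowest in wild type. Over all tested probe sets the same held for 31.5% and 33.1%. The order was not that of every gene. Groups did not overlap for 3 genes higher and 2 lower in Epi-df, beside 19.6% of all tested probe sets. Those lower were RPA2B and RFC2 (log2 differences -0.18 ± 0.08 and -0.19 ± 0.08, limma adjusted p = 0.396 and 0.301).

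The 8 genes of mitotic cyclins and kinases, of which all were tested, stood at -0.12, 0.01 and 0.11 in wild type and at 0.27, 0.36 and -0.40 in Epi-df. Neither list had a gene called with all arrays. The replication list had 23 genes higher and 6 lower in Epi-df with a median log2 difference of 0.10, and the mitotic list had 8 higher and 0 lower with a median of 0.06, beside 0.01 over all tested probe sets, of which 53.9% were higher. Unadjusted p lay under 0.05 for 3 replication genes and 0 mitotic genes, where 14.4% of all tested probe sets had such a p. Among the 3 was RFC2, which was lower in Epi-df. Without Epi-df replicate 3 the medians were 0.21 and 0.35. RPA2A, a subunit of the single-strand binding protein, was then the 1 replication gene with a limma adjusted p under 0.05 (0.0429, log2 difference 0.51). The share of all tested probe sets under 0.05 in that fit was not counted. With all arrays the groups of RPA2A overlapped (log2 difference 0.34 ± 0.15, limma adjusted p = 0.361). Without Epi-df replicate 1 or 2 the mitotic median was -0.04 or -0.06. The part that the share of dividing cells has in the values of MET1-2 and CMT3A was not tested.

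**Figure D3:**
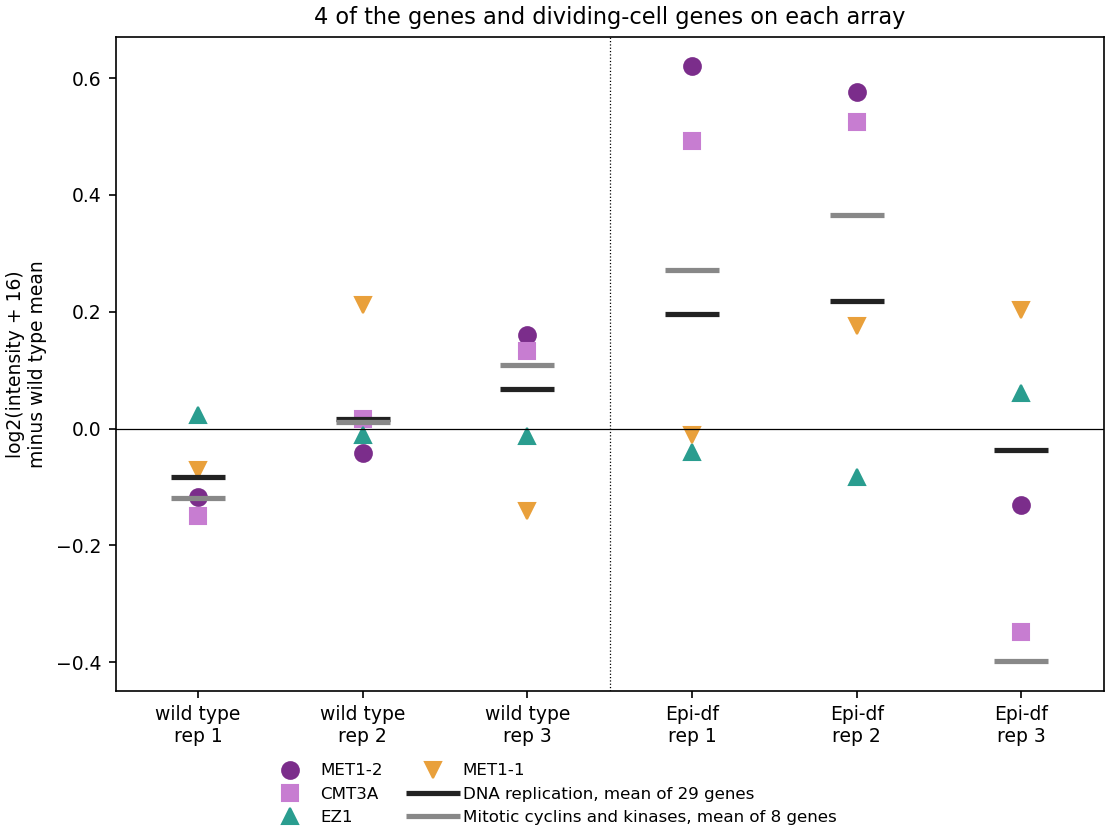
Log2(intensity + 16) of MET1-2, CMT3A, EZ1 and MET1-1 minus the mean of the wild type arrays, for each of the 6 arrays, with horizontal bars for the mean of 29 DNA replication and 8 mitotic genes. MET1-2, CMT3A and both gene lists are above 0.15 in Epi-df replicates 1 and 2 and below 0 in replicate 3, and EZ1 runs the other way within 0.09 of 0.

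Other markers differed in Epi-df replicate 3 too. NAS1 and NAS2, nicotianamine synthase genes of iron uptake, were at 1069 and 688 there and at 48.9 and 67.2 or less in the other 5 arrays. These are 2 of the 6 root genes looked for, of which 5 were tested. The summed intensity of the root list was 3408 to 3579 in wild type and 4364, 4259 and 5575 in Epi-df replicates 1, 2 and 3. Of the silicon transporter genes, LSI1 was at 396, 369 and 446 in wild type and at 533, 662 and 473 in Epi-df, and LSI6, which makes up most of the root sum, at 2776, 2979.6 and 2894 and at 3629, 3367 and 3205. Both lay above every wild type array in all Epi-df arrays and did not pass the test (log2 differences 0.44 ± 0.14 and 0.24 ± 0.07, limma adjusted p = 0.184 and 0.188). LSI2 lay between 20.6 and 26.3 in all arrays. PHT1-11 was at 96.0, 104 and 100 in wild type and at 75.3, 100 and 113 in Epi-df (log2 difference -0.06 ± 0.13). The root sum of Epi-df replicate 3 takes in the high NAS1 and NAS2 values. LSI1 and LSI6 were lower in that array than in Epi-df replicates 1 and 2. The leaf list summed to 60680.5 to 61998 in wild type and to 66579, 74561 and 62158 in Epi-df. Of its 6 genes, 4 were higher and 2 lower in Epi-df. Both genes named LHCP lay above every wild type array in all Epi-df arrays. Their log2 differences were 0.28 ± 0.06 and 0.57 ± 0.13 (limma adjusted p = 0.0749 and 0.0873). A second probe set of the first rose by 0.64 ± 0.11, under the 2-fold threshold (limma adjusted p = 0.0308). RCA was at 10793.5, 12594 and 11640 in wild type and at 11345, 13057 and 8776 in Epi-df. Seed genes summed to 9843 to 11221 and to 12300, 12826 and 11062, with 0 of 9 tested called. AGPS2 and RSR1 make up most of this sum. The mean log2 level of the 9 tested, relative to the wild type mean, was 0.09, 0.47 and 0.02 in Epi-df replicates 1, 2 and 3. RP6 was at 252 in Epi-df replicate 2 and between 22.3 and 102.5 elsewhere. SBE1, a starch branching enzyme gene of this list that is also known outside seeds, was at 1687, 1765 and 1663 in wild type and at 2309, 2183 and 2226 in Epi-df, a rise of 0.39 ± 0.07 under the 2-fold threshold (limma adjusted p = 0.0386). The meristem list, with 3 of 5 tested and 0 called, summed to 387 to 446 in wild type and to 853, 524 and 575 in Epi-df. OSH1, untested, was at 268 in Epi-df replicate 1 and between 13.6 and 30.2 elsewhere. OSH71 was at 28.2, 25.9 and 90.6 in wild type and at 233, 135 and 197 in Epi-df, without overlap (log2 difference 1.78 ± 0.36, limma adjusted p = 0.0614). The other 2 tested meristem genes went opposite ways, with overlap. OSH3 had a log2 difference of 0.33 ± 0.12 (limma adjusted p = 0.254) and OSH43 one of -0.15 ± 0.09 (limma adjusted p = 0.551). OSH6, untested, was at 65.5, 69.4 and 67.7 in wild type and at 91.2, 65.6 and 76.1 in Epi-df. The anther and pollen list, with 1 of 2 tested, summed to 139.5 to 175.8 and to 142 to 167. The part of these cells in the values of the 6 genes was not tested.

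The genes most like each member over the 6 arrays were sought among named probe sets with an SD of at least 0.2. Likeness was Pearson's r of the log2 values, a description over 6 arrays that share groups, with no test. For CMT3A they were ORC1, of the origin recognition complex, with an r of 0.997, MCM7, of the replicative helicase, with 0.993, and the kinesin gene KIN14N, with 0.993. ORC1 stood at 145, 169 and 180.4 in wild type and at 232, 235 and 134 in Epi-df replicates 1, 2 and 3. Its log2 difference between the lines was 0.22 (limma adjusted p = 0.717), beside the 0.22 of CMT3A.

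For MET1-2 they were CSLA9, a cellulose synthase-like gene, with an r of 0.992, the kinesin gene KIN5C, with 0.991, and the endoglucanase gene Cel9E, with 0.986. Of 910 probe sets compared, 38 had an r above 0.9 with MET1-2 and 46 with CMT3A. With MET1-1 the number was 2 of 911, with DRM2 4, with fie 6 and with EZ1 15. The most alike were the ammonium transporter gene AMT2-3, C3H54 and MCCA for MET1-1 (0.945, 0.937 and 0.893) and the hexokinase gene HXK2, DRB1 and ORC3 for DRM2 (0.984, 0.971 and 0.932). For fie they were the auxin repressor gene IAA25, the sugar transporter gene SWEET1A and the glycolate oxidase gene GLO5 (0.983, 0.957 and 0.922). For EZ1 they were NH1, a coactivator of salicylic acid responses, CASPL1U2 and SCAMP4 (0.987, 0.983 and 0.982).

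Other genes of the same pathways were found by name: 16, of which 15 were tested, and 0 were called. Of these 15, 9 were higher and 6 lower in Epi-df, with a median log2 difference of 0.07, and 2 had an unadjusted p under 0.05. These shares were near the 53.9% higher and the 14.4% over all tested probe sets. Groups did not overlap for 2 genes that were higher and 2 that were lower, beside 19.6% of all tested probe sets. The relative of DRM2 that the annotation names DRM3 was at 842, 848 and 843 in wild type and at 936, 854 and 904 in Epi-df (log2 difference 0.09 ± 0.07, limma adjusted p = 0.699). Its groups did not overlap, but its second tested probe set had a difference of 0.05 and groups that did.

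ROS1C, also named DNG701, encodes a DNA glycosylase that removes methylated cytosine, the opposite step to that of the methyltransferases. Its intensity was 618, 659.7 and 652 in wild type and 730.3, 854 and 726 in Epi-df, and the groups did not overlap. The log2 difference of 0.25 ± 0.09 did not pass the test (limma adjusted p = 0.265). Of the small RNA list, with 5 tested, the argonaute genes AGO4A and AGO4B had differences of 0.09 ± 0.09 and 0.07 ± 0.10, and the polymerase gene RDR2 one of -0.04 ± 0.08. DCL4, which acts on trans-acting small RNAs, had one of -0.14 ± 0.08.

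In the Polycomb list 4 genes were found and tested. Beside fie and EZ1 these were MSI1, a histone-binding subunit, at 2097, 2179 and 2295 in wild type and 2436, 2210.4 and 2276 in Epi-df, and LHP1, a chromodomain protein that reads the Polycomb mark, at 3479, 3323 and 3434 and at 3838, 3616 and 3386. Both overlapped between the groups, with log2 differences of 0.07 ± 0.07 and 0.08 ± 0.07 (limma adjusted p = 0.754 and 0.710). The second probe set of MSI1 did not overlap, at 1192, 1126 and 1233 in wild type and 1294, 1276 and 1256 in Epi-df, a difference of 0.11 ± 0.07 (limma adjusted p = 0.603). SDG723, also named TRX1, of the Trithorax group that opposes Polycomb, had one of -0.06 ± 0.09.

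Among 3 histone demethylase genes, JMJ706 was lower in every Epi-df array, at 713, 581 and 618 against 1203, 759 and 792 in wild type. Its log2 difference of -0.49 ± 0.18 did not pass the test (limma adjusted p = 0.262), and its second probe set gave -0.47 ± 0.14 (limma adjusted p = 0.163). Without wild type replicate 1, the highest array, the difference of the first probe set was -0.28 (limma adjusted p = 0.500). JMJ705, which removes the histone mark that Polycomb places, was at 287, 273 and 273 in wild type and 243, 244 and 253 in Epi-df, a small difference of -0.16 ± 0.08 without overlap (limma adjusted p = 0.424). JMJ703 had one of 0.06 ± 0.08, and the acetylation genes GCN5 and ADA2 had 0.12 ± 0.09 and -0.06 ± 0.07. Their other probe sets gave 0.10 ± 0.09 and -0.26 ± 0.29. The deacetylase gene HDAC3 was the gene left untested by the filter. It was at 48.45, 46.91 and 50.85 in wild type and at 67.97, 64.26 and 93.28 in Epi-df.

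**Figure D4:**
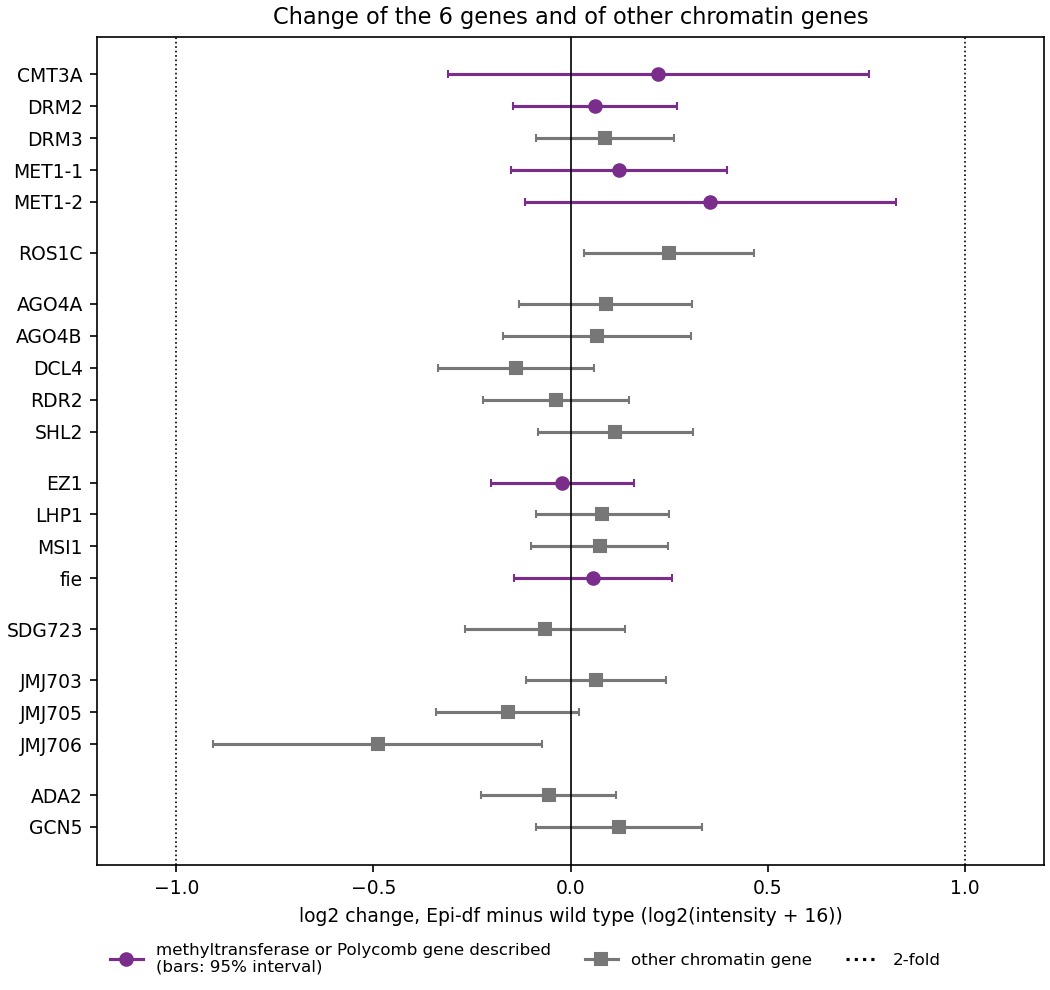
Log2 difference, Epi-df minus wild type, with its 95% interval (limma, 3 arrays in each group) for the 6 genes (purple circles) and 15 other tested chromatin genes (grey squares), grouped by role; dotted lines mark 2-fold. No interval reaches 2-fold, and those of MET1-2 and CMT3A are the widest among the 6 genes.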

How the data were processed

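Total RNA of 6 seedling samples was labelled with biotin and hybridised, 1 array per biological replicate, per the labels' protocols. The deposited values are probe set intensities on a linear scale, made by the authors with MAS5 per the submitters' processing notes. Its version and scaling target are not given in the sources used here. No further scaling was made. The titles gave each sample's group and replicate number.

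On log2(intensity + 16), limma 3.58.1 (R 4.3.3) was fitted (eBayes with an intensity trend, two-sided, no replicate block), over the 34355 probe sets with a mean at or above the 40th percentile, with Benjamini-Hochberg adjustment over all of them. Calls needed an adjusted p under 0.05 and 2-fold, the thresholds in the series' design text. The scale understates changes of dim probe sets. Ratios between members used exact permutation over arrays. For a gene with several probe sets the brightest stood for it. Genes were named from the platform's table with synonyms from RefSeq's gene list (assembly ASM3414082v1). This gave 22436 probe sets 1 gene and 95 several, and left 34727 unnamed here. Coordinates and sequences were not used here.

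The fit was tested on simulated arrays. Median estimates lay close to the changes put in, and most falls that were missed had been dropped by the filter on low values. Not every change put in was called when probe sets of all levels were drawn. Genes and lists were chosen with earlier results of these data known. The text names each member, up to 4 genes of each chromatin list (called ones, then the brightest) and the 3 genes most like each member. RPA2A, RPA2B, RFC2, HDAC3, SBE1 and the marker genes given by value were chosen after their values were seen. Alternatives were another pseudocount, filter, scaling, spread model, array weights, a replicate block and leaving out each array. The number of arrays limits the precision.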

Additional observations from a re-analysis of the deposited data

How the results depend on the processing

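None of the 6 genes was called under any alternative run. Leaving out 1 array gave log2 differences from 0.05 to 0.23 for MET1-1, 0.22 to 0.60 for MET1-2, 0.07 to 0.51 for CMT3A and 0.002 to 0.12 for DRM2. For fie they ran from -0.015 to 0.092 and for EZ1 from -0.061 to 0.011. The sign of fie turned without wild type replicate 1 (-0.015), that of EZ1 without Epi-df replicate 2 (0.011), and that of the ratio of EZ1 to fie without wild type replicate 1 (0.0063, with -0.13 its lowest); the cause was not tested. The ratio of CMT3A to MET1-2 ran from -0.17 to -0.09, that of MET1-2 to MET1-1 from 0.03 to 0.52 and that of DRM2 to MET1-2 from -0.51 to -0.17. Under the other alternatives MET1-2 stayed between 0.33 and 0.39 and CMT3A between 0.21 and 0.25. With the 60th percentile filter MET1-1 was not among the tested probe sets.

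The count of 211 called probe sets on the whole array was 614 with no fold threshold, 324 with the replicate block, 111 without wild type replicate 1, 117 without wild type replicate 2 and at most 260 with another array left out. Same-numbered arrays deviated from their group means with correlations of 0.13, 0.33 and -0.06 across probe sets, so the numbers were not taken as pairs. With the block, MET1-2 had a limma adjusted p of 0.497 and CMT3A one of 0.730.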
